A study of Mus musculus with 48 samples.

Results

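The genes described here are the cytochrome P450 genes of the mouse outside the Cyp1 and Cyp4 families, measured by RNA-seq in kidney slices kept in culture. They were taken from the table of raw counts as the rows whose symbol begins with Cyp and a digit, leaving out Cyp1 and Cyp4 genes, Cyp51, Cyp24a1, Cyp27b1 and symbols marked as pseudogenes. This gave 74 genes of 131 rows with such a symbol, in a table of 55487 gene IDs. All donors were males, of 2 inbred strains, C57BL/6J or DBA/2J, the founders of the BXD panel, and no genotype beyond the strain is given. For either strain there were 8 conditions. Slices were kept untreated (control), with tunicamycin or with cyclosporin A, for 6 h or 24 h. Further slices were kept under normoxia, which the labels call an ischemia model, or under normoxia-hyperoxia, which they call a reperfusion model, and the titles of both give 24 h. Each of the 16 groups held 3 libraries. Tunicamycin blocks N-linked glycosylation and cyclosporin A inhibits calcineurin. The age of the mice, the doses of both drugs, the oxygen that control slices received and the time of the switch in oxygen are not given in the sources used here. Nothing says whether libraries of a group came from separate mice, so the p-values measure the spread between these libraries, which may be partly technical.

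Cytochrome P450 enzymes are heme proteins that insert an oxygen atom into steroids, fatty acids, vitamins, drugs and other small molecules. Most sit in the endoplasmic reticulum and take electrons from P450 oxidoreductase, and a few sit in mitochondria and take them from ferredoxin. In the kidney they are found mainly in the proximal tubule, where several are set by androgens in male mice, and some make epoxides of arachidonic acid that act on salt transport and vessel tone.

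Library totals ranged from 5619309 counts, in DBA/2J normoxia-hyperoxia replicate 2, to 25137581, with 12384733 the next lowest. Levels are CPM, read counts relative to the library's total, scaled by edgeR's factors for library composition (trimmed mean of M-values, TMM). All 10 proximal tubule markers were detected in every control and oxygen group, and so were 8 of 8 markers of the loop, distal tubule and collecting duct, so the slices held kidney epithelium as labelled. Of 6 adrenal cortex markers, 5 were detected in the 6 h control, normoxia and normoxia-hyperoxia groups of both strains, where the defining gene Nr5a1 had 0 counts, and all 6 in the 24 h controls. Their sum ranged from 20.6 to 32.8 CPM at 6 h, from 53.1 to 61.4 at 24 h, from 5.16 to 6.38 under normoxia and from 18.8 to 30.7 under normoxia-hyperoxia in C57BL/6J, and over the same groups from 4.92 to 27.2 CPM in DBA/2J. The hepatocyte gene Tat had 0 counts in every control and oxygen group except C57BL/6J normoxia-hyperoxia, while the summed hepatocyte markers reached 51.2 to 90.8 CPM in C57BL/6J 6 h controls and 91.1 to 122 CPM in C57BL/6J normoxia, against at most 8.03 CPM in the other control and oxygen groups. Mitochondrial genes took 15.4% of counts in C57BL/6J 6 h controls, 6.82% at 24 h, 23.9% under normoxia and 14.1% under normoxia-hyperoxia, and 8.16%, 3.52%, 12.3% and 13.7% in DBA/2J. The part of these differences in the results below was not tested. In bulk tissue, fewer cells of a type and less RNA per cell cannot be told apart.

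A group mean of at least 1 CPM was reached by 26 of the 74 genes, and 19 of these reached at least 10 CPM. The other 48 stayed under 1 CPM in all 16 groups. Of those, 10 had no count in any of the 48 libraries, among them Cyp7a1, the rate-limiting enzyme of bile acid synthesis from cholesterol, and another 19 had between 1 and 10 counts in total. The gene just under the limit was Cyp2j8, with 0.895 CPM in DBA/2J normoxia. None of the 6 genes of steroid hormone synthesis reached 1 CPM, and the highest of them, Cyp17a1, had 0.374 CPM in DBA/2J normoxia-hyperoxia. The vitamin D 25-hydroxylase gene Cyp2r1 stood at most at 0.623 CPM, in C57BL/6J normoxia. Of the 15 Cyp2c genes only Cyp2c23 reached 1 CPM, and of the 9 Cyp3a genes only Cyp3a13. The liver gene Cyp3a11 stood at most at 0.222 CPM.

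Cyp2e1, which oxidises ethanol and other small solvents (chr7:140763739-140774987, plus strand, GRCm38), had the highest level, and per kilobase of exon it reached 1215 CPM per kb in DBA/2J normoxia. Cyp2j5, an epoxygenase of arachidonic acid abundant in mouse kidney (chr4:96628773-96664154, minus strand), came next with 626 CPM per kb in the same group. On the same scale Cyp2a4 reached 308 CPM per kb, Cyp2j13 reached 161 and Cyp2a5 reached 96.6. The remaining expressed genes topped out at 66.5 CPM per kb, the level of Cyp2d26, or below. Summed over the 74 genes, C57BL/6J slices held 1748 ± 427 CPM at 6 h, 379 ± 33.6 at 24 h, 3188 ± 286 under normoxia and 438 ± 43.4 under normoxia-hyperoxia, and DBA/2J slices 3051 ± 243, 980.3 ± 315, 6190 ± 327 and 571 ± 54.7 (SD, n = 3).

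**Figure D1:**
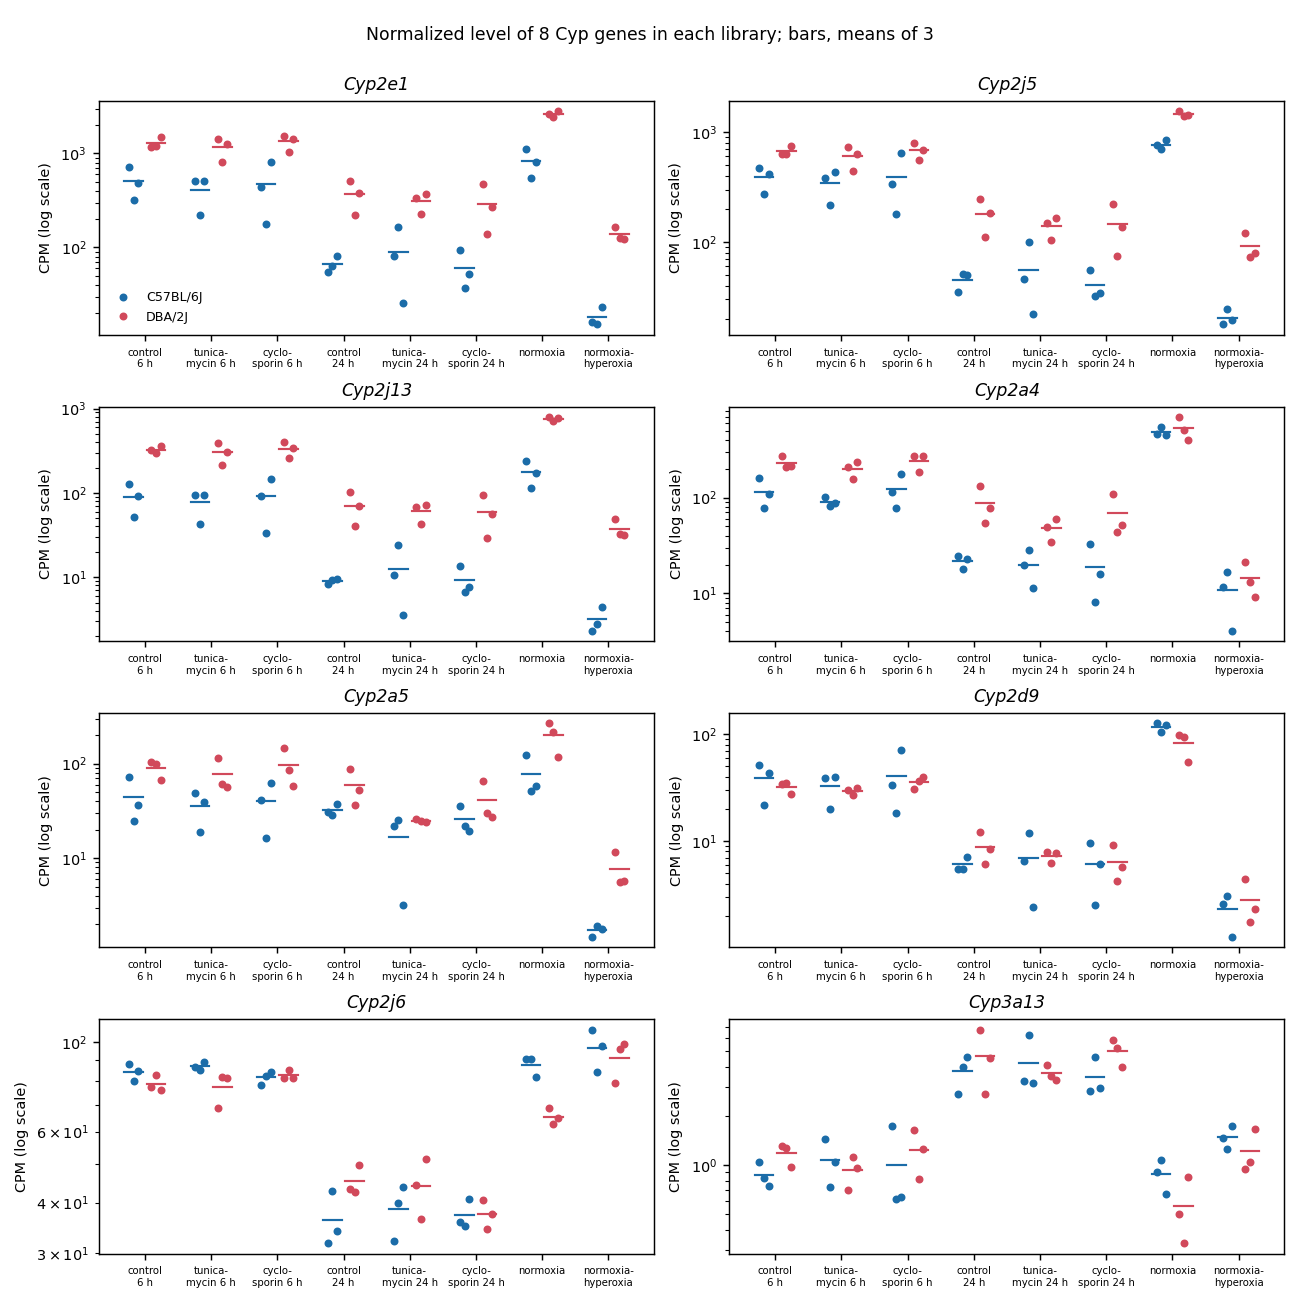
CPM (log axis) of 8 cytochrome P450 genes in each library of the 16 groups, with C57BL/6J and DBA/2J in separate colours and a bar at the mean of 3 libraries. Cyp2e1, Cyp2j5, Cyp2j13, Cyp2a4 and Cyp2d9 fall from the 6 h to the 24 h controls and are highest under normoxia, while Cyp3a13 is higher in the 24 h than in the 6 h controls.

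Cyp2a4, a steroid 15-alpha-hydroxylase, and Cyp2a5, the coumarin 7-hydroxylase, are near copies on chromosome 7, and how far reads can be told apart between them bears on every value given for the pair. Their coding sequences (GENCODE M21 on GRCm38) are both 1482 bases long and differ at 23 bases, an identity of 98.448%. A stretch of coding bases 550 to 669 that holds 6 of the differences, set in capitals, shows how much of the sequence is shared.
Cyp2a4: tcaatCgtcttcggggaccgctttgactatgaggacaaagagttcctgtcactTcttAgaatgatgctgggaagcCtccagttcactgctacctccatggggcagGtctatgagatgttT
Cyp2a5: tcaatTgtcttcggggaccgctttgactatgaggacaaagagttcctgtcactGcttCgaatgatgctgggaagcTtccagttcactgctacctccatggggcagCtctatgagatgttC
Of all 50-base words in the Cyp2a4 transcript, 38.8% also occur in another gene, mostly Cyp2a5, and 40.8% of those of Cyp2a5 do. The levels of the pair are therefore uncertain where the authors' counting could not assign such reads. The same share was 29% for Cyp2d9, 17.9% for Cyp2d12 and 10.5% for Cyp2d26, and at most 2.32% for the expressed Cyp2j genes.

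The sequence before the start site was searched in the expressed genes, whatever their change, since HNF1 and HNF4 alpha are known activators of proximal tubule genes. RefSeq windows of 250 bases before the start site (GRCm38.p6) matched 19 of the 26 expressed genes. GTTAAT, an arm of the HNF1 palindrome, read on both strands (ATTAAC on the other), was found in 3 of these 19, against 6.436% of 32817 windows of that length. The search covered the whole windows. Printed are their parts up to the first annotated exon, which are 227, 216 and 201 bases long, with the match in capitals, for Cyp2a4 at chr7:26306942-26307168 (plus strand), Cyp2a5 at chr7:26835089-26835304 (plus strand) and Cyp2d26 at chr15:82794295-82794495 (minus strand).
Cyp2a4: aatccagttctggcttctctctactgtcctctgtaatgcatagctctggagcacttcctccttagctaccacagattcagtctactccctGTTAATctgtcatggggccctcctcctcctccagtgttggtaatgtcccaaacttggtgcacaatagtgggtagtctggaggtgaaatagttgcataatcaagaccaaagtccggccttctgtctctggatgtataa
Cyp2a5: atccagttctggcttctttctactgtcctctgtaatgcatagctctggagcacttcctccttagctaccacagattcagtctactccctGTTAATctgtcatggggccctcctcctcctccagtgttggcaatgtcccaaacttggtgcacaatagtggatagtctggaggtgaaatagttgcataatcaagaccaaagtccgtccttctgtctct
Cyp2d26: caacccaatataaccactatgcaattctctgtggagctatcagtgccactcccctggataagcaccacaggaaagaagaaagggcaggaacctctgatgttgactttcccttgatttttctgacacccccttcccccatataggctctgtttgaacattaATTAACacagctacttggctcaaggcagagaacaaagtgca
The printed Cyp2a4 and Cyp2a5 stretches match at 212 of 216 aligned bases, so they count as 1 sequence rather than as 2 separate cases. The HNF4 alpha motif CAAAGTCCA, which lies in 0.384% of all windows, was in none of the 19, and its shorter form AAAGTCCA, in 1.015% of all windows and contained in the longer one, was in none either. A match describes these letters and shows no binding.

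Between 6 h and 24 h of culture most of the expressed cytochrome P450 genes fell. Of the 26 tested in 24 h against 6 h controls, 21 fell and 2 rose (edgeR's quasi-likelihood test over both strains, Benjamini-Hochberg adjusted p under 0.05). The called share of 88.5% stands beside 72.0% of all genes tested, and the 21 that fell and 2 that rose stand beside 37.4% and 34.7% of all genes. The median log2 fold change was -1.90 for these genes and -0.02 for all genes. In 21 of the 26 the 24 h and 6 h libraries did not overlap in either strain, against 54.1% of all genes. With library totals in place of TMM factors the median over all genes moved to 0.19 and the split of all called genes from 5883 higher and 6338 lower to 7580 and 4969, while 21 of the 26 were called lower and 4 higher, Cyp2b10 and Cyp2s1 being the additions.

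Normoxia stood at the opposite end. Against the 24 h controls 22 of 28 tested genes were higher and 3 lower, or 89.3% called beside 82.0% of all genes, of which 42.4% were higher and 39.7% lower. In 23 of the 28 the libraries did not overlap in either strain, against 64.9% of all genes. The median log2 fold change was 2.55, and 0.05 over all genes. With library totals the latter became -0.22, with 5935 genes higher and 8360 lower in place of 7359 and 6891, and 22 of the 28 stayed higher. Cyp2j8 and Cyp2r1 were tested here although neither reached 1 CPM, and they passed the filter on low counts through the groups where they were high. Without them 21 of 26 were higher and 3 lower, with a median of 2.62. Against the 6 h controls, 16 of 27 genes were higher under normoxia and 3 lower, or 70.4% called beside 65.8% of all genes, with 32.9% higher and the same share lower, and without Cyp2j8 15 of 26 were higher and 3 lower. Here 11 of 27 had no overlap in either strain, against 44.5% of all genes.

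Normoxia-hyperoxia split the family. Against the 24 h controls 12 of 26 tested genes were higher and 11 lower, or 88.5% called beside 68.2% of all genes, with 34.1% of all genes higher and the same share lower. In 14 of the 26 the libraries did not overlap, against 48.6% of all genes. The medians were 0.03 for these genes and 0.00 for all genes. With library totals the median of all genes became -0.17, and 4699 genes were higher and 7347 lower in place of 5881 and 5891. Against normoxia, 18 of 27 were lower and 4 higher, or 81.5% called beside 73.5% of all genes, of which 36.5% were lower and 37% higher. The 27 include Cyp2j8, tested through its level in normoxia, and without it 17 of 26 were lower and 4 higher, with a median of -2.21. In 18 of the 27 the libraries did not overlap, against 53.6% of all genes. The median over the 27 was -2.63, or -2.34 with the genes at 3 counts or fewer in a group set to their bound, beside 0.02 over all genes. These comparisons share control or normoxia libraries, so their values are given side by side and not related to each other.

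**Figure D2:**
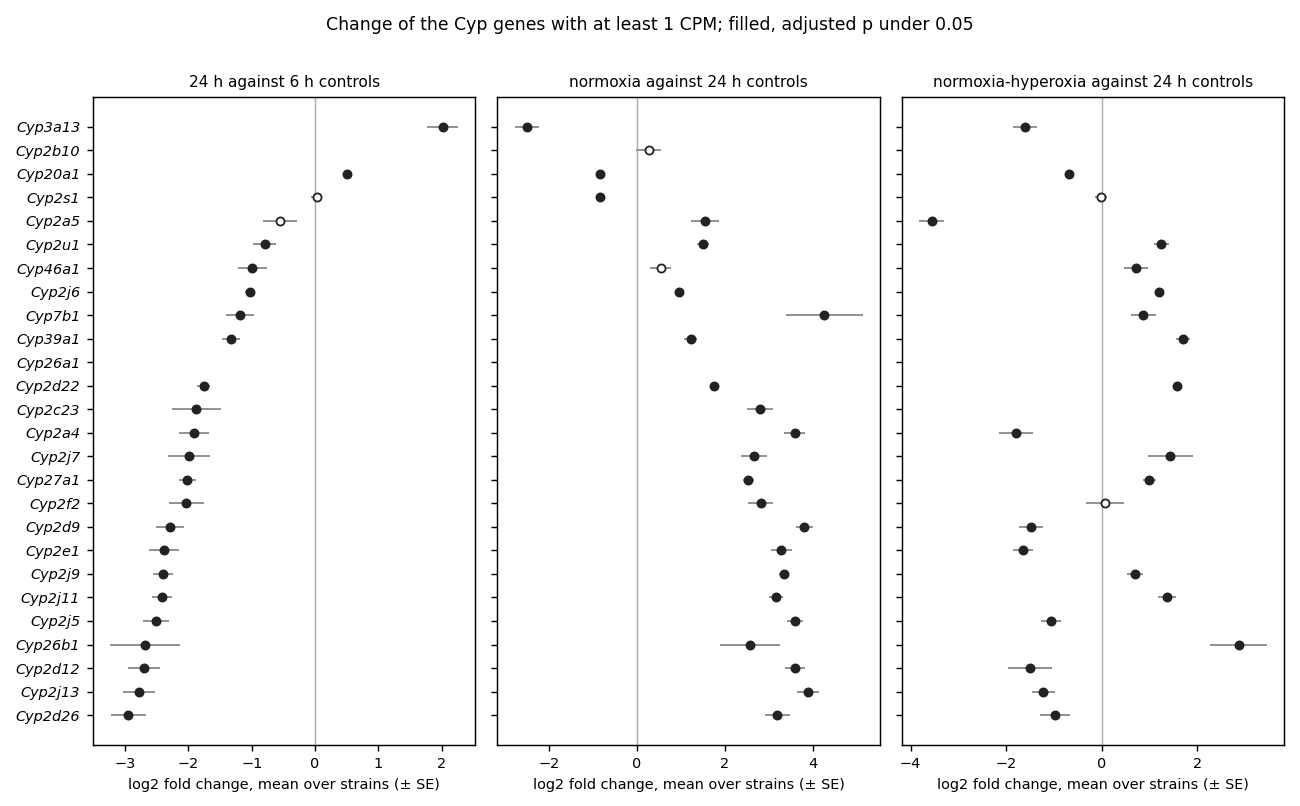
Log2 fold change (points, with bars of 1 SE) of the 26 expressed genes, averaged over both strains, for 24 h against 6 h controls, normoxia against 24 h controls and normoxia-hyperoxia against 24 h controls; filled points have an adjusted p under 0.05, and genes with a group at 3 counts or fewer in each library have no point. Most points lie left of 0 in the first panel and right of 0 in the second, and the third holds points on both sides of 0.

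Proximal tubule markers moved with these results. Their sum ranged from 2914 to 5834 CPM in C57BL/6J 6 h controls, from 393 to 597 at 24 h, from 6058 to 9196 under normoxia and from 183 to 325 under normoxia-hyperoxia. In DBA/2J the ranges were 6480 to 7609, 915 to 2021, 14831 to 16331 and 636 to 963 CPM. All 10 fell from 6 h to 24 h (median log2 fold change -2.68), all 10 were higher under normoxia than in the 24 h controls (3.73), and 7 of 10 were lower and none higher under normoxia-hyperoxia than in the 24 h controls (-0.93). The 8 loop, distal tubule and collecting duct markers fell in all 8 cases from 6 h to 24 h (-1.75). Against the 24 h controls 7 of 8 were higher and none lower under normoxia (1.31), and all 8 were higher under normoxia-hyperoxia (2.09). Their sum had a mean of 3987 CPM at 24 h and 16262 under normoxia in C57BL/6J, and of 3633 and 5456 in DBA/2J. The summed immune markers had means of 88.1, 113, 96.8 and 114 CPM in the 6 h controls, 24 h controls, normoxia and normoxia-hyperoxia of C57BL/6J, and of 99.5, 177, 71.4 and 199 in DBA/2J. The endothelial ones had means of 1310, 1135, 719 and 1226 CPM and of 812, 693, 426 and 1187 in the same order. Under normoxia against 24 h, 3 of 6 immune markers were higher and 2 lower, and 2 of 5 endothelial ones were higher and 2 lower. The part of these sets in the results of the cytochrome P450 genes was not tested.

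Among the enzymes of drugs and solvents, Cyp2e1 showed the pattern at the highest counts. In C57BL/6J it stood at 723, 317 and 485 CPM at 6 h, at 55.1, 64.0 and 80.2 at 24 h, at 1129, 544 and 811 under normoxia and at 15.9, 15.2 and 23 under normoxia-hyperoxia. In DBA/2J the same groups stood at 1181, 1189 and 1503, at 505, 219 and 379, at 2614, 2439 and 2816 and at 166, 127 and 123 CPM. Within each strain no library of one of these 4 conditions overlapped another except C57BL/6J normoxia with the 6 h controls. The log2 fold change was -2.39 from 6 h to 24 h (SE 0.238, adjusted p = 2.57e-06 by edgeR), 3.28 for normoxia against 24 h (SE 0.24, adjusted p = 2.12e-07) and -1.65 for normoxia-hyperoxia against 24 h (SE 0.202, adjusted p = 2.14e-05). Between the oxygen conditions it was -4.92 (SE 0.197, adjusted p = 1.82e-10).

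Cyp2a4 followed the same order. In C57BL/6J it stood at 159, 77.7 and 109 CPM at 6 h, at 24.6, 18 and 22.6 at 24 h, at 469, 550 and 450 under normoxia and at 11.8, 16.8 and 4.07 under normoxia-hyperoxia. In DBA/2J it stood at 273, 207 and 215, at 133, 53.9 and 78.4, at 692, 509 and 403 and at 21, 13.1 and 9.26 CPM. None of these groups overlapped another within a strain. The change from 6 h to 24 h was -1.92 on the log2 scale (SE 0.232, adjusted p = 1.52e-05), and normoxia stood 1.63 above the 6 h controls (SE 0.168, adjusted p = 2.48e-06). Normoxia-hyperoxia stood 5.37 below normoxia, with a log2 fold change of -5.37 (SE 0.343, adjusted p = 1.51e-07). This was the largest fall among the tested genes with a fitted fold in that comparison.

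Its near copy Cyp2a5 was not called between 6 h and 24 h of culture, except without the filter on low counts (-0.57, adjusted p = 6.02e-11). Its libraries overlap, as given next, so the p-value of that fit does not measure the spread between them. In C57BL/6J it stood at 71.5, 24.5 and 36.7 CPM at 6 h and at 31.1, 28.8 and 37.1 at 24 h, and in DBA/2J at 105, 99.6 and 67.4 and then at 87.8, 36.9 and 52.8. These groups overlap in both strains, and the log2 fold change of -0.55 did not pass the threshold (SE 0.275, adjusted p = 0.0921). Under normoxia-hyperoxia Cyp2a5 fell to 1.47, 1.90 and 1.80 CPM in C57BL/6J and to 11.7, 5.59 and 5.77 in DBA/2J. That was the largest fall against the 24 h controls among those of these genes with a fitted fold, with a log2 fold change of -3.56 (SE 0.262, adjusted p = 2.92e-07). The difference between Cyp2a4 and Cyp2a5 was not tested, and their shared sequence limits it.

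Cyp2b10, the classical target of the nuclear receptor CAR, was a low gene with another pattern. In DBA/2J it stood at 0.674, 1.33 and 2.74 CPM at 6 h, at 2.46, 1.73 and 2.44 at 24 h and at 2.21, 2.49 and 3.81 under normoxia, and at 0.176, 0 and 0.455 under normoxia-hyperoxia. Each C57BL/6J library held at most 8 counts in these groups, and in 6 h controls and normoxia-hyperoxia at most 3. The change over time was not called by edgeR, at an adjusted p of 0.0639, but was with library totals (adjusted p = 0.0279), without the filter on low counts (0.031) and by DESeq2 (0.0463). Normoxia against 24 h was not called (log2 fold change 0.27, SE 0.287, adjusted p = 0.402). Its fall under normoxia-hyperoxia was called in both comparisons. No fold is given for these comparisons over time or with normoxia-hyperoxia because a C57BL/6J group lay at 3 counts or fewer. Cyp2f2, which activates naphthalene in the airway, reached 6.10, 5.53 and 4.52 CPM in DBA/2J normoxia, fell by 2.03 on the log2 scale from 6 h to 24 h (SE 0.276, adjusted p = 9.98e-06) and was 2.81 higher under normoxia than at 24 h (SE 0.294, adjusted p = 2.13e-07).

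The Cyp2j genes, epoxygenases and hydroxylases of fatty acids clustered on chromosome 4, all fell from 6 h to 24 h in the 6 tested, with a median log2 fold change of -2.41. The same 6 were all higher under normoxia than at 24 h, with a median of 3.25. For all genes the shares were 37.4% lower over time and 42.4% higher under normoxia. Cyp2j8, which passed the filter on low counts through normoxia, is left out of this count. Under normoxia-hyperoxia against 24 h 4 of 6 were higher and 2 lower, beside 34.1% of all genes in either direction. The lower ones were Cyp2j5 and Cyp2j13, and the higher ones Cyp2j6, Cyp2j7, Cyp2j9 and Cyp2j11. The call of Cyp2j7 (1.44) was lost without DBA/2J normoxia-hyperoxia replicate 1 (0.95, adjusted p = 0.122).

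Cyp2j5 stood at 474, 275 and 412 CPM at 6 h in C57BL/6J, at 34.9, 51.2 and 49.5 at 24 h, at 756, 703 and 843 under normoxia and at 17.7, 24.3 and 19.5 under normoxia-hyperoxia. In DBA/2J it stood at 628, 637 and 750, at 248, 111 and 182, at 1549, 1414 and 1440 and at 121, 72.7 and 79.3 CPM. All 4 conditions stand apart in C57BL/6J, while in DBA/2J the highest normoxia-hyperoxia library lies above the lowest 24 h control. The log2 fold changes were -2.52 over time (SE 0.206, adjusted p = 4.62e-07), 3.60 for normoxia against 24 h (SE 0.185, adjusted p = 4.47e-09) and -1.06 for normoxia-hyperoxia against 24 h (SE 0.205, adjusted p = 0.000724).

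Cyp2j13 (chr4:96027534-96077546, minus strand) gave the largest rise under normoxia among the genes whose libraries did not overlap in either strain. It stood at 8.39, 9.31 and 9.61 CPM at 24 h and at 239, 114 and 172 under normoxia in C57BL/6J, and at 101, 40.1 and 70.9 and then 788, 708 and 772 in DBA/2J. This is a log2 fold change of 3.89 (SE 0.257, adjusted p = 1.31e-07). From 6 h to 24 h it fell by 2.78 (SE 0.253, adjusted p = 1.31e-06).

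Cyp2j6 (chr4:96516138-96553661, minus strand) had the smallest fall over time of the cluster, by 1.03 on the log2 scale (SE 0.0772, adjusted p = 2.22e-08). In C57BL/6J it stood at 88.1, 79.9 and 84.8 CPM at 6 h, at 31.8, 42.8 and 34 at 24 h, at 90.8, 90.8 and 81.8 under normoxia and at 107, 84.1 and 98 under normoxia-hyperoxia. In DBA/2J it stood at 77.3, 82.7 and 76.0, at 43.2, 42.6 and 49.7, at 68.6, 62.7 and 64.8 and at 79.2, 96.3 and 98.8 CPM. The 24 h controls were the lowest of these groups in both strains, and normoxia-hyperoxia stood 1.21 above them on the log2 scale (SE 0.0901, adjusted p = 2.16e-08) and 0.28 above normoxia (SE 0.0722, adjusted p = 0.0029). Cyp2j11 stood at 61.3, 43.3 and 59.7 CPM under normoxia-hyperoxia in C57BL/6J and at 16.6, 25.2 and 20.7 in DBA/2J, against 7.55, 15.6 and 10.6 and then 16.4, 10.9 and 16.7 in the 24 h controls. The groups did not overlap in C57BL/6J and overlapped in DBA/2J.

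All 4 tested Cyp2d genes, from a cluster on chromosome 15, fell from 6 h to 24 h (median log2 fold change -2.50), and all 4 were higher under normoxia than at 24 h (3.4), beside 37.4% and 42.4% of all genes. Cyp2d9, the testosterone 16-alpha-hydroxylase of male mice (chr15:82433437-82456845, plus strand), stood at 51.5, 21.6 and 43.1 CPM at 6 h, at 5.53, 5.52 and 7.12 at 24 h and at 126, 104 and 123 under normoxia in C57BL/6J. In DBA/2J it stood at 34, 35 and 27.6, at 12, 6.10 and 8.42 and at 98.7, 94.8 and 55.0 CPM. Normoxia lay above all libraries of both control times in both strains, 3.80 above the 24 h controls (SE 0.197, adjusted p = 7.55e-09) and 1.46 above the 6 h controls (SE 0.203, adjusted p = 6.79e-05) on the log2 scale. Under normoxia-hyperoxia Cyp2d9 was lower than at 24 h, with a log2 fold change of -1.48 (SE 0.25, adjusted p = 0.000122).

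Cyp2d26 had the largest fall over time among those of the 26 genes with a fitted fold. It fell from 105, 55.5 and 95.8 to 3.00, 9.26 and 7.71 CPM in C57BL/6J and from 68.9, 63.8 and 68.1 to 21.1, 9.20 and 14.2 in DBA/2J. Its log2 fold change was -2.95 (SE 0.274, adjusted p = 1.59e-06). Cyp2d12 fell by 2.7 (SE 0.254, adjusted p = 1.53e-06). Cyp2d22, often taken as the counterpart of human CYP2D6, went the other way from its neighbours under normoxia-hyperoxia. It stood at 23.6, 23.9 and 20.3 CPM there in C57BL/6J and at 21.7, 23.1 and 22.8 in DBA/2J, against 6.28, 9.44 and 7.19 and then 7.49, 6.92 and 7.62 at 24 h, a log2 fold change of 1.58 (SE 0.0997, adjusted p = 3.04e-09). Cyp2d9, Cyp2d12 and Cyp2d26 were each lower than at 24 h in that comparison.

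The sterol enzymes fell in 4 of 4 tested genes from 6 h to 24 h, beside 37.4% of all genes, with a median log2 fold change of -1.26. Cyp27a1, the mitochondrial sterol 27-hydroxylase, stood at 30.4, 20.7 and 29.6 CPM at 6 h and at 4.97, 6.74 and 6.75 at 24 h in C57BL/6J, and at 38.2, 36 and 36.4 and then 12.6, 7.83 and 9.94 in DBA/2J (log2 fold change -2.02, SE 0.131, adjusted p = 5.82e-09). It was higher than at 24 h under normoxia (2.54, SE 0.119) and under normoxia-hyperoxia (1.00, SE 0.137). Cyp39a1, which hydroxylates 24-hydroxycholesterol, stood at 16.9, 18.8 and 18.6 CPM under normoxia-hyperoxia in C57BL/6J and at 11.7, 10.7 and 12.3 in DBA/2J, above every 24 h control (5.02, 5.39 and 5.21 CPM, and 2.37, 3.96 and 5.18). The log2 fold change there was 1.70 (SE 0.142, adjusted p = 5.86e-08), and that of normoxia against 24 h was 1.22 (SE 0.151, adjusted p = 1.63e-06).

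Cyp7b1, the oxysterol 7-alpha-hydroxylase, differed widely between libraries under normoxia. It stood at 33.1, 165 and 142 CPM there in C57BL/6J and at 24.4, 1.66 and 1.11 in DBA/2J, against at most 5.90 CPM in any 6 h or 24 h control. In DBA/2J a single library, replicate 1, lay above the controls. The log2 fold change against 24 h was 4.26 (SE 0.874, adjusted p = 0.00149) and became 2.89 without that library, and against 6 h it was 3.03 (SE 0.794, adjusted p = 0.00824) and became 1.69. Normoxia-hyperoxia against normoxia gave -3.37 (SE 0.875, adjusted p = 0.00703), or -1.99 without it. Over time the change was -1.18 (SE 0.222, adjusted p = 0.000221), with an adjusted p of 0.086 in the fit of all 48 libraries. Cyp46a1, the cholesterol 24-hydroxylase of neurons, stayed between 0.498 and 2.61 CPM in these groups, and its call of 0.72 for normoxia-hyperoxia against 24 h (SE 0.245, adjusted p = 0.0172) was lost without DBA/2J normoxia-hyperoxia replicate 3, at an adjusted p of 0.0508, and with library totals (0.55, adjusted p = 0.058).

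Retinoic acid is cleared by the Cyp26 enzymes, and both tested genes fell from 6 h to 24 h and were higher in each oxygen condition than at 24 h. For all genes the shares were 37.4% lower over time, 42.4% higher under normoxia and 34.1% higher under normoxia-hyperoxia. Cyp26b1 (chr6:84571414-84593908, minus strand) stood at 26.9, 134 and 43.2 CPM in the C57BL/6J 6 h controls and at 6.42, 11.6 and 6.09 at 24 h. Its C57BL/6J libraries stood at 21.2, 135 and 38 CPM under normoxia and at 22.4, 133 and 26.2 under normoxia-hyperoxia. In DBA/2J the same 4 groups stood at 6.74, 2.81 and 18.5, at 1.37, 2.37 and 2.01, at 4.74, 1.82 and 17.2 and at 9.21, 5.59 and 23.9 CPM. In each of these groups except the 24 h controls, C57BL/6J replicate 2 and DBA/2J replicate 3 were the highest libraries by more than 2-fold. The log2 fold changes were -2.68 over time (SE 0.552, adjusted p = 0.00127), 2.57 for normoxia against 24 h (SE 0.684, adjusted p = 0.0067) and 2.87 for normoxia-hyperoxia against 24 h (SE 0.594, adjusted p = 0.00186). The second became 1.94 without DBA/2J normoxia replicate 3 and the last 2.2 without C57BL/6J normoxia-hyperoxia replicate 2. Between the oxygen conditions it was 0.33 (SE 0.767, adjusted p = 0.721). It was called without the filter on low counts (adjusted p = 0.000497), a p-value that does not measure the spread between these libraries.

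The same replicates stood out for Cyp26b1 in the 6 h drug groups. Tunicamycin at 6 h gave 22.9, 147 and 43.6 CPM in C57BL/6J and 4.80, 4.33 and 19.7 in DBA/2J, and cyclosporin A 24.8, 137 and 35 and then 3.73, 3.51 and 15.2. At 24 h with either drug no C57BL/6J library exceeded 9.94 CPM. Whether same-numbered libraries came from the same mouse is not given in the sources used here. Cyp26a1 reached at most 1.81 CPM in a library of the control and oxygen groups, and its DBA/2J 24 h controls held 0, 2 and 2 counts, so no fold is given for it.

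**Figure D3:**
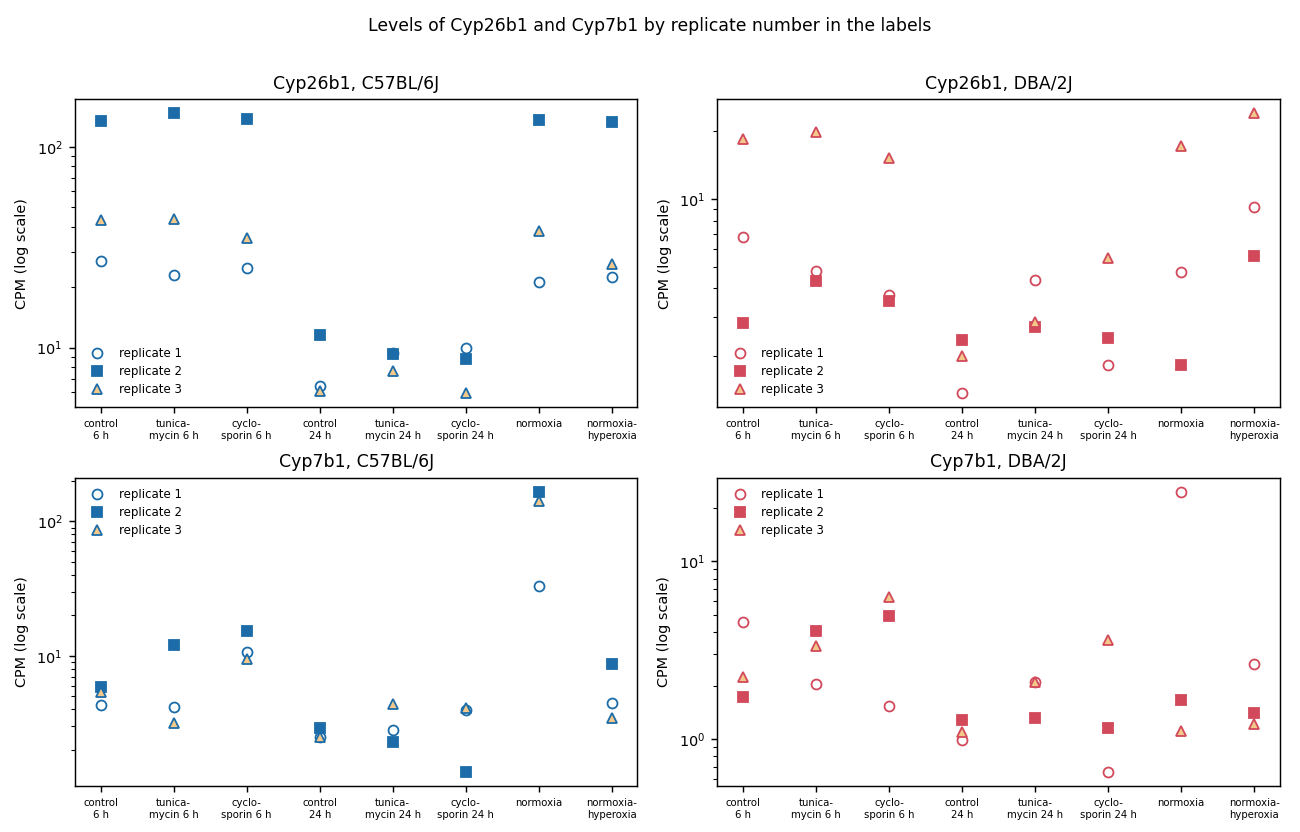
CPM (log axis) of Cyp26b1 and Cyp7b1 in each library, by group, with the replicate number as the symbol and the strains in separate colours. Replicate 2 of C57BL/6J and replicate 3 of DBA/2J are the highest for Cyp26b1 in the 6 h and oxygen groups, by more than 2-fold.

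Cyp3a13 and Cyp20a1 went against the family. Cyp3a13, a drug-metabolising enzyme of the Cyp3a group, stood at 1.05, 0.833 and 0.739 CPM at 6 h and at 2.72, 4.00 and 4.62 at 24 h in C57BL/6J, and at 1.30, 1.28 and 0.969 and then 6.78, 2.73 and 4.51 in DBA/2J. All 24 h controls lay above all 6 h controls of their strain (log2 fold change 2.02, SE 0.245, adjusted p = 3.2e-06). Under normoxia Cyp3a13 was lower than at 24 h (-2.51, SE 0.27, adjusted p = 3.03e-07), and so it was under normoxia-hyperoxia (-1.61, SE 0.249, adjusted p = 3.77e-05). Cyp20a1, an orphan P450 whose substrate is not settled, rose from 23.3, 23.5 and 25.9 to 37.7, 30.8 and 34.1 CPM over time in C57BL/6J and from 22.3, 20 and 21.9 to 31.9, 31.1 and 31.7 in DBA/2J (0.51, SE 0.0682, adjusted p = 8.69e-06). These were the only 2 of the 26 genes whose mean was highest in the 24 h controls of both strains among the 4 control and oxygen conditions, beside 27.7% of all genes with a group mean of at least 1 CPM.

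Cyp2s1, an enzyme of epithelia, was not called over time, at a log2 fold change of 0.03 (SE 0.0922, adjusted p = 0.818), but was with library totals (0.24, adjusted p = 0.036). It stood at 54.5, 55.4 and 62.4 CPM at 6 h and at 40.8, 40.4 and 40.6 under normoxia in C57BL/6J, and at 47.8, 60.2 and 50.8 and then 20.7, 23.4 and 26 in DBA/2J. Normoxia was below both controls in both strains, with a log2 fold change of -0.86 against 6 h (SE 0.0765, adjusted p = 1.6e-07). Cyp2u1, a fatty acid hydroxylase, was higher under normoxia (1.49, SE 0.138) and normoxia-hyperoxia (1.25, SE 0.163) than at 24 h.

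Over the 26 expressed genes, 15 (57.7%) had the order normoxia above 6 h above 24 h controls in the means of both strains, beside 24.2% of the 16501 gene IDs with a group mean of at least 1 CPM. Cyp7b1 left this order without DBA/2J normoxia replicate 1, and Cyp2a5 without C57BL/6J 6 h control replicate 1. Of the 15, 7 had normoxia-hyperoxia below the 24 h controls as well (26.9% of the 26, beside 3.86% of all): Cyp2e1, Cyp2j5, Cyp2j13, Cyp2a4, Cyp2a5, Cyp2d9 and Cyp2d12. Cyp2a5, not called over time, dropped out of these too without that 6 h control. The orders describe means and were not tested.

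**Figure D4:**
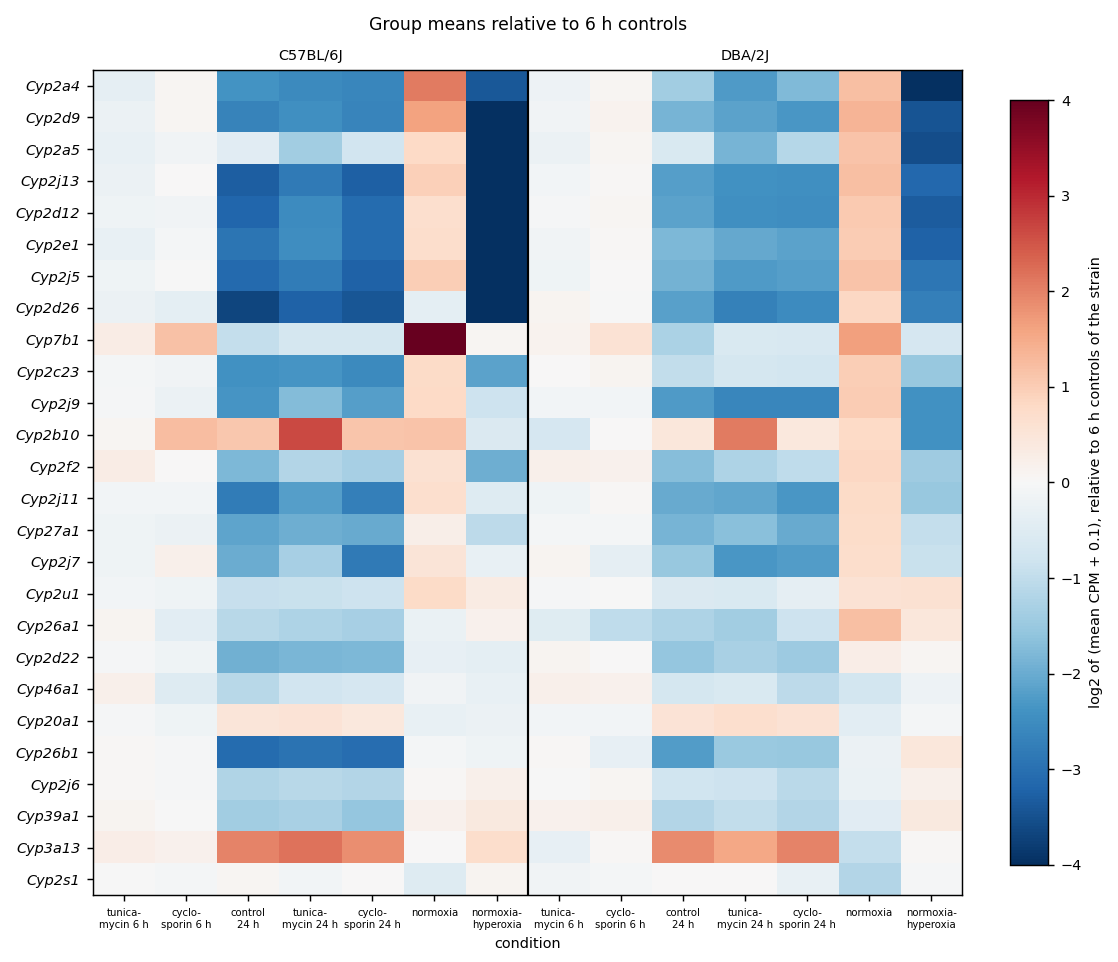
Heat map of the 26 expressed genes (rows) in every group except the 6 h controls (columns). Colour is the log2 ratio of the group's mean CPM, with 0.1 added, to the mean of the same strain's 6 h controls. It is limited to 4 in either direction. Most rows lie below 0 in the columns of the 24 h controls and drugs, and 15 rows rise above 0 in both normoxia columns while lying below 0 in both 24 h control columns.

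In the fits with the filter on low counts, few of these genes were called as responding differently in the 2 strains. For time in culture, edgeR called 0 of 26 genes as differing between the strains' effects, with 7 at an unadjusted p under 0.05, 0 by DESeq2 and 0.69% of all genes called, but 8 were called without the filter. In normoxia against 24 h, 3 genes were called, beside 17% of all genes, and 5 by DESeq2 and 14 without the filter. The fit without the filter can give far lower p-values than the others where libraries spread widely. Cyp2a4 rose less in DBA/2J, by a difference of -1.82 on the log2 scale (SE 0.428, adjusted p = 0.0183). Its mean in C57BL/6J was 21.7 CPM at 24 h and 490 under normoxia, and in DBA/2J 88.4 and 535. Cyp2j6 rose less in DBA/2J too (-0.66, SE 0.143, adjusted p = 0.00613). Cyp2s1 fell more there (-0.56, SE 0.18, adjusted p = 0.0467), a call lost in the fit of all 48 libraries and without any of 7 libraries. With library totals the split of all called genes in these tests moved from 71 higher and 46 lower to 43 and 114 for time, and from 1761 and 1195 to 966 and 1584 for normoxia against 24 h, and the 3 genes kept their calls.

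In normoxia-hyperoxia against 24 h the called genes were Cyp2j9 and Cyp2j11, 2 of the 6 Cyp2j genes tested. Cyp2j9 stood at 6.29, 5.61 and 7.72 CPM there in C57BL/6J, above its 24 h controls at 1.74, 2.26 and 2.50, and at 1.88, 2.45 and 1.67 in DBA/2J, among its 24 h controls at 2.18, 1.78 and 2.68. The difference of the strains' effects was -1.80 (SE 0.349, adjusted p = 0.0202) for Cyp2j9 and -1.80 (SE 0.369, adjusted p = 0.0404) for Cyp2j11, beside 1.43% of all genes called. Both calls rest on few libraries. That of Cyp2j9 was lost without C57BL/6J 24 h control replicate 2, DBA/2J 24 h control replicate 3 or DBA/2J normoxia-hyperoxia replicate 3, at adjusted p of up to 0.069, and that of Cyp2j11 without any of 8 libraries, at up to 0.11. Against normoxia, where 5 genes were called beside 18.2% of all genes, the same difference was -2.03 for Cyp2j9 (SE 0.235, adjusted p = 0.000135) and -1.24 for Cyp2j11 (SE 0.196, adjusted p = 0.00103), and both kept their calls in every fit. Cyp2j5 (1.13, SE 0.236, adjusted p = 0.00532), Cyp2e1 (1.2, SE 0.342, adjusted p = 0.0308) and Cyp2j13 (1.38, SE 0.421, adjusted p = 0.0439) fell less in DBA/2J than in C57BL/6J. Those 3 calls were lost in the fit of all 48 libraries, and those of Cyp2e1 and Cyp2j13 also without any of 7 and any of 9 libraries. In normoxia against 6 h the called genes were Cyp2d22 (0.60, SE 0.129, adjusted p = 0.0201) and Cyp2s1 (-0.65, SE 0.152, adjusted p = 0.0295), beside 3.66% of all genes, and both were lost in the fit of all 48 libraries and without any of 7 and any of 5 libraries. With library totals Cyp2d22 was not called (0.42, adjusted p = 0.0874). The split of all called genes then moved from 164 higher and 83 lower to 186 and 50 in normoxia-hyperoxia against 24 h, from 1241 and 1893 to 1749 and 745 against normoxia, and from 312 and 304 to 129 and 742 in normoxia against 6 h.

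DBA/2J libraries gave higher levels of Cyp2e1, Cyp2j5 and Cyp2j13 than C57BL/6J libraries and lower levels of Cyp2c23. Reads of both strains were matched to the same build, GRCm38, and its part in the strain differences was not tested. In the 6 h controls 13 of 26 genes differed between strains, 6 higher and 7 lower in DBA/2J (50% beside 26.2% of all genes, with 13.6% higher and 12.7% lower). In the 24 h controls 11 of 26 did, 8 higher and 3 lower (42.3% beside 22.2%, with 13.9% higher and 8.27% lower). Under normoxia 15 of 27, 8 higher and 7 lower, did so (55.6% beside 46.8%, with 28.3% higher and 18.5% lower), and under normoxia-hyperoxia 13 of 27, 8 higher and 5 lower (48.1% beside 25.7%, with 14.3% higher and 11.3% lower). Proximal tubule markers were called higher in DBA/2J for 5, 10, 8 and 8 of 10 genes in these 4 conditions, with median log2 differences of 0.76, 1.53, 1.05 and 1.61, and their part in the result was not tested. The count at 6 h moved by over 1.5 times, to 7 or 8, without C57BL/6J 6 h control replicate 2 or 3 or any DBA/2J 6 h control, and that at 24 h fell to 5 without DBA/2J 24 h control replicate 1. With library totals the 6 h split became 8 higher and 4 lower, beside 3894 and 1247 of all genes in place of 2299 and 2151, and the split of all genes under normoxia-hyperoxia became 3370 and 1187 in place of 2470 and 1953, with these genes at 8 and 5 as before.

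Cyp2j13 was higher in DBA/2J in all 4 conditions. The log2 difference was 1.88 at 6 h (SE 0.335, adjusted p = 0.00201), 2.97 at 24 h (SE 0.372, adjusted p = 0.000207), 2.18 under normoxia (SE 0.265, adjusted p = 6.63e-05) and 3.56 under normoxia-hyperoxia (SE 0.335, adjusted p = 2.22e-05), and no library of one strain overlapped the other. Cyp2e1 differed by 1.37 (SE 0.324, adjusted p = 0.00998), 2.48 (SE 0.34, adjusted p = 0.000348), 1.74 (SE 0.24, adjusted p = 0.000106) and 2.94 (SE 0.262, adjusted p = 7.26e-06) in the same order. Cyp2j5 differed by 2.01, 1.01 and 2.14 at 24 h, under normoxia and under normoxia-hyperoxia, and by 0.82 at 6 h (SE 0.275, adjusted p = 0.0482), where the call was lost without any of 8 libraries. In the fit of all 48 libraries the calls of Cyp2j5 at 6 h (adjusted p = 0.151) and under normoxia (adjusted p = 0.0648) were lost. Cyp2a4 was higher in DBA/2J by 2.04 in the 24 h controls (SE 0.335, adjusted p = 0.00123), while under normoxia the difference was 0.21 (SE 0.389, adjusted p = 0.692).

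Cyp2c23, an epoxygenase of arachidonic acid (chr19:44005022-44029208, minus strand), was lower in DBA/2J. It stood at 14.1, 5.38 and 11.8 CPM at 6 h in C57BL/6J and at 1.48, 0.766 and 0.285 in DBA/2J, and under normoxia at 20.8, 13.4 and 19.8 against 2.67, 1.88 and 0.798. The strains did not overlap in either condition, and the log2 differences were -3.55 (SE 0.47, adjusted p = 0.000139) and -3.26 (SE 0.341, adjusted p = 7.26e-06). Without DBA/2J 6 h control replicate 1 the first became -4.25. At 24 h the levels were 1.08, 2.13 and 2.42 CPM in C57BL/6J and 0.379, 0.319 and 0.427 in DBA/2J, a log2 difference of -2.28 (SE 0.591, adjusted p = 0.0141), and the call was lost without DBA/2J 24 h control replicate 1 (adjusted p = 0.0545). Under normoxia-hyperoxia the DBA/2J libraries held 1, 3 and 2 counts, so that C57BL/6J was at least 8.02-fold higher, taken against 3 counts in each library. With a library left out this bound ranged from 6.51-fold, without DBA/2J normoxia-hyperoxia replicate 3, to 13.9-fold. The latter was without DBA/2J normoxia-hyperoxia replicate 2, the library with the lowest total.

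Cyp2b10 differed in the opposite direction. At 6 h its C57BL/6J libraries held 2, 0 and 2 counts and its DBA/2J libraries 15, 26 and 48, at least 8.66-fold higher against 3 counts in each library, or at least 5.49-fold without DBA/2J 6 h control replicate 3. At 24 h the log2 difference was 2.97 (SE 0.54, adjusted p = 0.00114) and under normoxia 3.33 (SE 0.473, adjusted p = 5.42e-05). Cyp2f2 was also called higher in DBA/2J in all 4 conditions, by 1.28 to 1.94, although its calls at 24 h and under normoxia-hyperoxia depended on single libraries. The first was lost without C57BL/6J 24 h control replicate 1 or 2 or DBA/2J 24 h control replicate 1, and the second without DBA/2J normoxia-hyperoxia replicate 1, at adjusted p of up to 0.0799. In the fit of all 48 libraries the call of Cyp2f2 at 24 h was lost too (adjusted p = 0.058). Cyp39a1 was lower in DBA/2J under normoxia, at 6.91, 5.81 and 6.51 CPM against 13.1, 19 and 15.1 (-1.21, SE 0.134, adjusted p = 5.8e-06), and Cyp27a1 higher, at 63.0, 56.2 and 64.6 CPM against 36.2, 26.9 and 32.8 (1.02, SE 0.139, adjusted p = 4.21e-05). Cyp7b1 was lower in DBA/2J under normoxia (-3.53, SE 1.04, adjusted p = 0.0222), at -6.28 without DBA/2J normoxia replicate 1, and the call was lost without C57BL/6J normoxia replicate 2 or 3 or DBA/2J normoxia replicate 2, at adjusted p of up to 0.0648.

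**Figure D5:**
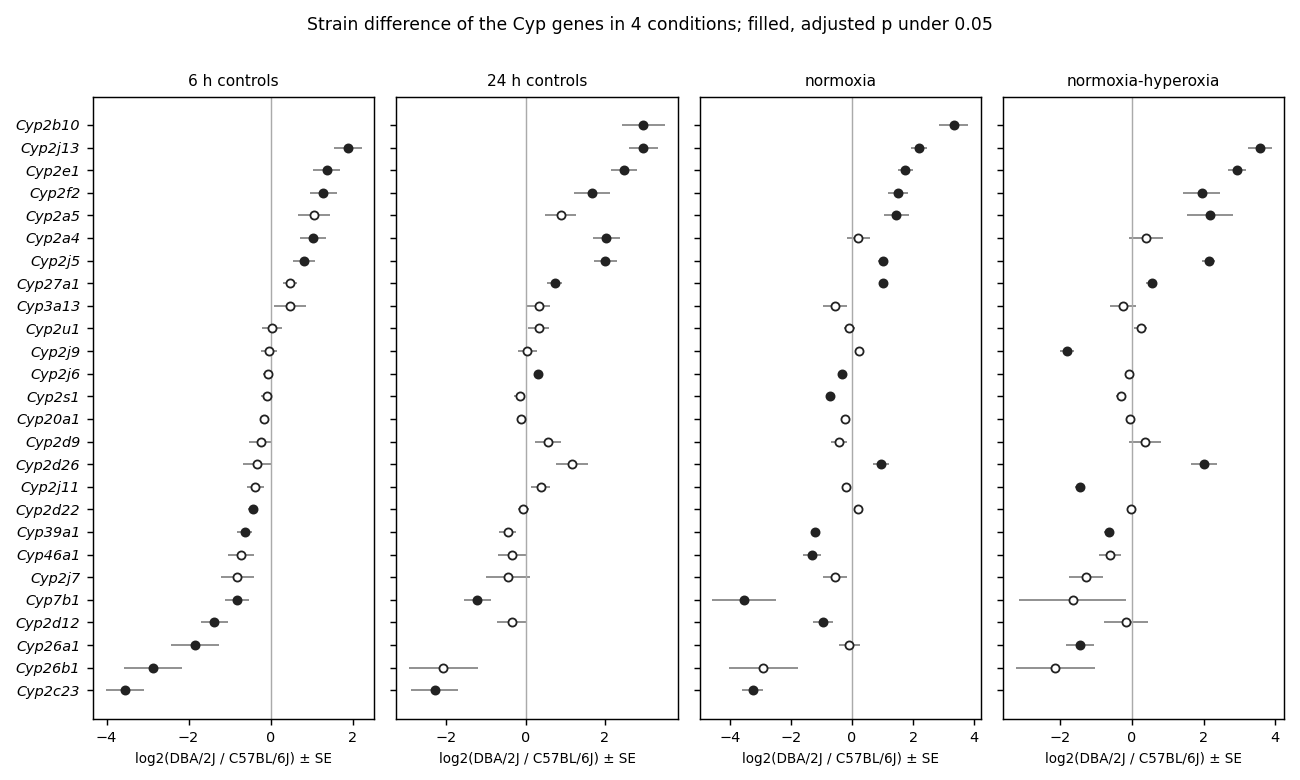
Log2 difference of DBA/2J from C57BL/6J (points, with bars of 1 SE) for the expressed genes in the 6 h controls, 24 h controls, normoxia and normoxia-hyperoxia; filled points have an adjusted p under 0.05, and genes with a strain at 3 counts or fewer in each library have no point. Cyp2j13 and Cyp2e1 lie right of 0 in all 4 panels, and Cyp2c23 left of 0 in the 3 panels that show it.

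Few of these genes were called with a drug, and few of all genes were. With tunicamycin at 6 h edgeR called 0 of 26 (0 at an unadjusted p under 0.05, 0 by DESeq2, 0.0% of all genes), with cyclosporin A at 6 h 0 of 26 (3 unadjusted, 0 by DESeq2, 0.0% of all genes) and at 24 h 0 of 24 (0 unadjusted, 0 by DESeq2, 0.0% of all genes). No drug's effect was called as differing between strains for any of them. Cyp2e1 stood at 509, 222 and 508 CPM with tunicamycin and at 445, 178 and 814 with cyclosporin A at 6 h in C57BL/6J, overlapping the controls at 317 to 723 CPM.

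With tunicamycin at 24 h, 1 of 26 genes was called (3.85% beside 1.38% of all genes, with 0.97% higher), and 5 had an unadjusted p under 0.05. This was Cyp2b10, at 0.873, 1.89 and 0.271 CPM against 0.375, 0.174 and 0.294 in C57BL/6J and at 5.70, 7.73 and 7.75 against 2.46, 1.73 and 2.44 in DBA/2J. The groups stood apart in DBA/2J and overlapped in C57BL/6J. The log2 fold change was 1.80 (SE 0.331, adjusted p = 0.0191), and the call was lost, at adjusted p of up to 0.0752, without C57BL/6J 24 h control replicate 2 or 3 or DBA/2J 24 h control replicate 3. Cyp2a5 was the only one of the 26 whose libraries did not overlap in either strain, beside 3.14% of all genes, at 21.8, 25.5 and 3.18 CPM with the drug in C57BL/6J and 26.1, 24.6 and 24.3 in DBA/2J. Its log2 fold change of -1.07 (SE 0.387) had an unadjusted p of 0.0214 and an adjusted p of 0.27.

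Most tested genes of heme synthesis and most regulators fell over time and were higher under normoxia than at 24 h. Of the 8 electron donors, 4 fell and 1 rose from 6 h to 24 h, beside 37.4% of all genes lower and 34.7% higher. Under normoxia 5 were higher and 1 lower than at 24 h, beside 42.4% and 39.7% of all genes, so that in both comparisons the share of donors called, 62.5% and 75%, lay below the 72.0% and 82.0% of all genes. Por, the oxidoreductase that serves the microsomal enzymes, did not pass the test over time (log2 fold change -0.09, SE 0.0632, adjusted p = 0.2) and was lower under normoxia than at 24 h (-0.38, SE 0.0634, adjusted p = 4.14e-05). Cyb5a, cytochrome b5, changed by -0.98 and 1.46 in these comparisons, and Fdx1, the ferredoxin of the mitochondrial enzymes, by -0.48 and 0.28, all called.

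Ephx2, which hydrolyses the epoxides of fatty acids, fell by 2.04 over time (SE 0.171, adjusted p = 4.9e-07) and was 2.86 higher under normoxia than at 24 h (SE 0.158, adjusted p = 7.77e-09). For Ephx1, the microsomal hydrolase, the values were -0.24, called, and -0.16, not called. Of the 8 heme synthesis genes, 7 fell over time and 8 were higher under normoxia than at 24 h (37.4% and 42.4% of all genes), among them Alas1, its first enzyme, at -0.36 and 0.24.

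Hmox1, which breaks heme down, stood at 4037, 4110 and 3916 CPM in the C57BL/6J 24 h controls, at 23, 23 and 20.7 under normoxia and at 1400, 1289 and 1669 under normoxia-hyperoxia. In DBA/2J the same groups stood at 3031, 3870 and 3319, at 41.2, 37.2 and 38.6 and at 788, 1069 and 1279 CPM. The groups were far apart, with a log2 fold change of -6.93 for normoxia against 24 h (SE 0.093, adjusted p = 2.38e-17).

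Of 10 regulators listed, 9 were tested, and 8 fell over time and 9 were higher under normoxia than at 24 h, beside the same 37.4% and 42.4% of all genes. Hnf4a, a main activator of proximal tubule and liver genes, stood at 173, 115 and 130 CPM at 6 h, at 16.6, 29.4 and 23.9 at 24 h and at 448, 336 and 371 under normoxia in C57BL/6J, and at 294, 315 and 342, at 100, 60.1 and 90.2 and at 708, 673 and 697 in DBA/2J. No library overlapped between these conditions, with log2 fold changes of -2.27 over time (SE 0.168, adjusted p = 1.5e-07) and 3.59 for normoxia against 24 h (SE 0.162, adjusted p = 9.17e-10). Nr1i2, the xenobiotic receptor PXR, changed by -1.54 and 2.30, both called. Rxra, the partner of PXR, gave -0.07 over time, not called, and 0.94 under normoxia, called. Nr1i3, the receptor CAR, was not tested, with at most 0.411 CPM. None of the named partners was called with either drug at either time, beside 0.0% of all genes, or 1.38% with tunicamycin at 24 h.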

How the data were processed

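RNA-seq was done on 48 libraries of mouse kidney slices, from 16 groups of 3 (2 strains, 8 conditions). Per the labels' protocols, a stranded Illumina kit based on ligation was used on mRNA. The submitters' processing notes name bcl2fastq 2.20.0, FastQC 0.11.8, STAR 2.7.9a, featureCounts 1.5.1 and the build GRCm38. The strand setting, the annotation release and the treatment of reads with several matches are not given in the sources used here, so overlapping genes and near copies are uncertain. The authors deposited raw counts per gene without normalization. Symbols matched 55141 of 55487 IDs, and coordinates are those of GENCODE M21.

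The members and lists were chosen with earlier results of these data known. The 9 comparisons were each fitted with edgeR 4.0.16 (R 4.3.3) to the 12 libraries of their 4 groups: TMM factors, the default filter on low counts, a robust quasi-likelihood F test with 8 residual degrees of freedom, and Benjamini-Hochberg adjustment over all genes tested, with calls at 0.05. Contrasts were the mean over strains, the strain difference of the effect (DBA/2J minus C57BL/6J) and the strain difference in 4 conditions, 22 in all. The scripts were tested on simulated data. Printed levels are CPM with TMM factors over all 48 libraries. A group with at most 3 counts in each library gets no fitted fold.

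Described were the 12 genes with the highest group mean and, per comparison, up to 6 called genes of largest rise and 6 of largest fall without overlap in either strain, up to 5 called genes by p for each strain contrast, fixed partners and the role lists. The values of 1 regulator are not reported here. Other genes, and values singled out beyond this rule, were chosen after their values were seen. Alternatives were RLE factors within edgeR, the Wald test of DESeq2 1.42.0, no filter, a replicate block, all 48 libraries in a single fit, each library left out, and library totals without TMM, the last chosen after seeing the data.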

Additional observations from a re-analysis of the deposited data

Results flagged for a closer look

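The strains' effects differed by edgeR's test of the difference itself (DBA/2J minus C57BL/6J, log2 scale) for these genes, in 4 comparisons that share libraries. In normoxia against 24 h controls the differences were -0.66 for Cyp2j6, -1.82 for Cyp2a4 and -0.56 for Cyp2s1. In normoxia-hyperoxia against 24 h controls they were -1.80 for Cyp2j9 and -1.80 for Cyp2j11. In normoxia-hyperoxia against normoxia they were -2.03 for Cyp2j9, -1.24 for Cyp2j11, 1.13 for Cyp2j5, 1.2 for Cyp2e1 and 1.38 for Cyp2j13. In normoxia against 6 h controls they were 0.60 for Cyp2d22 and -0.65 for Cyp2s1. The differences of Cyp2a4 and Cyp2j6 in normoxia against 24 h, and of Cyp2j9 and Cyp2j11 in normoxia-hyperoxia against normoxia, were called in every alternative run, and the other 8 were not. Their causes were not tested.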

How the results depend on the processing

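Of the 77 values of single genes that the naming rule chose, 69 kept their direction and call in every alternative, and the 8 others, all strain differences of an effect, kept their direction. No value reversed. Other calls printed beside their values were also lost in some alternatives, among them those of Cyp2b10, Cyp2f2, Cyp2j5, Cyp2j7, Cyp7b1 and Cyp46a1. The counts of genes changed over both strains stayed within 1.5 times, at 23 to 24 over time, 25 to 27 in normoxia against 24 h, 21 to 23 in normoxia-hyperoxia against 24 h, 21 to 24 against normoxia and 16 to 20 in normoxia against 6 h with each library left out. Tunicamycin at 24 h gave 0 to 1, and the other drug comparisons 0 to 0, as did the strain difference over time. Strain differences numbered 7 to 14 at 6 h, 5 to 11 at 24 h, 13 to 18 under normoxia and 10 to 13 under normoxia-hyperoxia. Differences of the effects numbered 2 to 5 and 0 to 2 in normoxia and normoxia-hyperoxia against 24 h, 3 to 5 against normoxia and 0 to 4 in normoxia against 6 h. Without a filter these 4 rose to 14, 4, 13 and 5, and that over time to 8 (Cyp2a4, Cyp2d9, Cyp2d12, Cyp2d26, Cyp2e1, Cyp2j5, Cyp2j11 and Cyp2j13). The edgeR fit without a filter gave an adjusted p of 2.27e-121 for the strain difference of Cyp26b1 under normoxia, against 0.0118 by DESeq2. Its calls therefore do not measure the spread between libraries as those of the other fits do. With DESeq2 normoxia against 24 h gave 5 and against 6 h 4. In the fit of all 48 libraries normoxia-hyperoxia against normoxia gave 2 and normoxia against 6 h 0. The cause was not tested.

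With the replicate number as a block, differences of the effects numbered 8 in normoxia-hyperoxia against normoxia and 4 in normoxia against 6 h, and 24 genes changed over time, Cyp2b10 being called (adjusted p = 0.0448). In the first of these, Cyp26b1 (0.85, adjusted p = 0.0366), Cyp2s1 and Cyp39a1 were added. In normoxia against 6 h 22 changed, with Cyp26b1, Cyp2c23 and Cyp2d26 added to the 19. In normoxia-hyperoxia against 24 h the difference of Cyp2j11 was not called (-1.83, adjusted p = 0.0921), while that of Cyp2a5 was (1.23, adjusted p = 0.00545). The numbers were not shown to pair the libraries, as no comparison had every same-numbered pair correlated above 0.1. In normoxia against 6 h, 5 of 6 pairs were, and 12 of 12 libraries correlated best with their own number. A block could not be fitted for strain differences, as the strains are different mice. Depth limits the 48 genes under 1 CPM.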
